A study of Mus musculus with 4 samples.

Results

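Large peritoneal macrophages (LPMs) are the resident macrophages of the serous cavity, and the CC chemokines are small secreted proteins that draw monocytes, lymphocytes and granulocytes into tissues through G protein-coupled receptors. The 10 CC chemokine genes of mouse chromosome 11 described here are Ccl2, Ccl7, Ccl11, Ccl12 and Ccl8, which lie side by side in 81.2 kb, and Ccl5, Ccl9, Ccl6, Ccl3 and Ccl4, which fill 139 kb after a gap of 1.41 Mb. Their accessible chromatin was measured by ATAC-seq, in which a transposase inserts adapters into open DNA, so that reads pile up where chromatin is accessible. Overlapping peaks of the 4 libraries (by 1 bp or more) were joined into 1 region, and a region belonged to a chemokine gene if the start site (TSS) nearest to its midpoint was that gene's or if it overlapped the gene body. This gave 51 of the 70744 regions in the series, 18 in the Ccl2 group and 33 in the Ccl5 to Ccl4 group.

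LPMs (F4/80hi MHCIIlo) were sorted at 40000 cells per library from C57BL/6 mice aged 9 weeks, with 2 libraries per genotype, all in library batch 1. Both genotypes carried floxed alleles of the retinoid X receptor genes Rxra and Rxrb. The RXRabfl/fl libraries (replicates 1 and 3) came from littermates without Cre and are the controls, and the LysMCre+RXRabfl/fl libraries (replicates 1 and 2) came from mice in which Cre, expressed from the LysM locus in myeloid cells, deletes both receptors. Retinoid X receptors are nuclear receptors that bind DNA as homodimers or with partners such as the retinoic acid receptors, and the comparison asks how their loss alters chromatin in LPMs. LysM is also active in monocytes and neutrophils, so deletion was not restricted to LPMs. Because ATAC-seq samples that did not cluster with their group were left out by the study, the spread between the libraries kept may be smaller than among all that were made. The sources used here do not name the animals behind each library, so the spread between these libraries may be partly technical. The limma p-values below rest on this spread after each region's variance was drawn toward that of all regions tested.

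The libraries differed in yield. RXRabfl/fl replicate 3 stood apart with 16097 peaks against 38048 in RXRabfl/fl replicate 1, 65421 in LysMCre+RXRabfl/fl replicate 1 and 55581 in replicate 2. The lowest background level, which tracks sequencing depth, was 1.97, 1.06, 1.33 and 1.08 tags per 200 bp in the same order as RXRabfl/fl replicates 1 and 3 and LysMCre+RXRabfl/fl replicates 1 and 2, the order used for all 4 values below. Promoters of LPM marker genes, including Gata6, Timd4 and Icam2, were called for 10, 7, 12 and 12 of 12 genes, and those of small peritoneal or monocyte-derived macrophage markers for 7, 2, 9 and 8 of 10. None of the T cell, mast cell, eosinophil or mesothelial marker promoters was called in any library, 1 of 6 B cell promoters was called in 1 library, and 1, 0, 3 and 1 of 5 neutrophil promoters were called. Regions assigned to the 4 mesothelial marker genes were called 1, 1, 7 and 7 times, and 5 of these 8 regions (62.5%, against 22.8% of all regions) were called in both LysMCre+RXRabfl/fl libraries alone. Of these, 2 belonged to Msln and 3 to Upk3b, while Krt19 had 0 and Wt1 had no region. Regions of B cell markers were called 3, 1, 9 and 6 times, and those of T cell markers 3, 1, 7 and 5 times. For neutrophil, mast cell and eosinophil markers the calls were 2, 0, 8 and 4, 0, 0, 3 and 1, and 3, 2, 4 and 3. The shares called in both LysMCre+RXRabfl/fl libraries alone were 20%, 28.6%, 25%, 33.3% and 0% for these lists in turn. The 1 mesothelial region called in all 4 libraries had a log2 difference of 0.62 (LysMCre+RXRabfl/fl minus RXRabfl/fl) and did not pass the threshold used below. The part of other cells in the results was not tested. A region was called at the Rxra and the Rxrb promoter in each of the 4 libraries, which does not check the deletion, since a promoter can stay open without the floxed exons.

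CC chemokines of the Ccl2 group include the main ligands of CCR2, a receptor that inflammatory monocytes use in their migration. Resting tissue macrophages can hold such genes in open chromatin and transcribe them on stimulation, with NF-kB, AP-1 and C/EBP among the factors known to bind their control regions. Accessibility does not measure transcription.

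The 9 stretches of DNA below carry the comparisons that follow. The first 3 are the promoters of the chemokine genes that were called in all 4 libraries and for which RefSeq (GRCm38.p6, the same build as mm10) gives a promoter in the table used, each shown from 200 bases before the TSS to the base before it on the gene's own strand. The other 6 are windows of 201 bases around the strongest summit of a region, on the plus strand, and none of the 9 overlaps an annotated exon. Capitals mark matches, on either strand, to AP-1 (TGANTCA), C/EBP (TTGCNNAA), PU.1 (GAGGAAGT), STAT factors (read as TTCNNNGAA), GATA factors (read as AGATAA), the core promoter's TATA box (read as TATAAA), NF-kB, an interferon-stimulated response element (ISRE) or the DR1 and DR5 repeats of nuclear receptor half-sites. Matches may overlap, as the pair of TATA matches in the Ccl9 promoter does. The table matched 5 of the 10 genes (Ccl12, Ccl8, Ccl9, Ccl6 and Ccl3).
Ccl9 promoter (chr11:83578637-83578836, minus strand): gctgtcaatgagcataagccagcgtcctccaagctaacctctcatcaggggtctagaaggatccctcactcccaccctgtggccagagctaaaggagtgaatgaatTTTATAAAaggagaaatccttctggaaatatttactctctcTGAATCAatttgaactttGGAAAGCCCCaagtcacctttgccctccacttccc
Ccl6 promoter (chr11:83593088-83593287, minus strand): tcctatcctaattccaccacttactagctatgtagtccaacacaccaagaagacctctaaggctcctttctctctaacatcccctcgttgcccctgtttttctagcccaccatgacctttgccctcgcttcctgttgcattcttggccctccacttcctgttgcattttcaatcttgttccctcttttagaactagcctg
Ccl3 promoter (chr11:83649379-83649578, minus strand): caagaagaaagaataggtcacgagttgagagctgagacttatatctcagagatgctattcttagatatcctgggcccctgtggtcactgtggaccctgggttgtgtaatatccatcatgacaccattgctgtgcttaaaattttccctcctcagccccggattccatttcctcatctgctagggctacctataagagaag
In the Ccl9 promoter the AP-1 match began 53 bases and the NF-kB match 35 bases before the TSS, while the Ccl6 and Ccl3 promoters held none of the motifs in these 200 bases. Over the 300 bases of the promoter table, Ccl12, Ccl8 and Ccl9 held the TATA letters, at -31, -32 and -92 bases from the TSS in that order. Of the 32851 mouse promoters in the table, 13.6% contain these letters. The 5 chemokine promoters in the table had 2 or 3 CpG dinucleotides each, with observed over expected CpG ratios of 0.119 to 0.175 against a median of 0.384 over all promoters.

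The windows around summits follow, named by the nearest gene and the distance of the region from its TSS, minus for upstream.
Ccl7 -3.77 kb, nearest to the threshold (chr11:82041922-82042122, plus strand): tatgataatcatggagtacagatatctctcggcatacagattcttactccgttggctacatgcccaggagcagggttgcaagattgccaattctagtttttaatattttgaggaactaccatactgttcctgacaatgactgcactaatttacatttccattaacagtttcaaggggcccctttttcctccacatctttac
Ccl8 +24.6 kb, the one region of Ccl8 (chr11:82139529-82139729, plus strand): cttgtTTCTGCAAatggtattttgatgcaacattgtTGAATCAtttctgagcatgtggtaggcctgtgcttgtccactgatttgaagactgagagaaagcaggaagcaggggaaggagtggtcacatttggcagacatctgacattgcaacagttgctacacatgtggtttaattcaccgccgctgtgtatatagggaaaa
Ccl6 -23.6 kb, the strongest region (chr11:83616636-83616836, plus strand): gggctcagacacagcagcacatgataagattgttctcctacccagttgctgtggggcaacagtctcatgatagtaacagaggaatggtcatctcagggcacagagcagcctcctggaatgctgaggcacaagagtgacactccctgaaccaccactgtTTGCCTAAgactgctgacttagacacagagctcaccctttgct
Ccl3 +9.04 kb, the next strongest (chr11:83640275-83640475, plus strand): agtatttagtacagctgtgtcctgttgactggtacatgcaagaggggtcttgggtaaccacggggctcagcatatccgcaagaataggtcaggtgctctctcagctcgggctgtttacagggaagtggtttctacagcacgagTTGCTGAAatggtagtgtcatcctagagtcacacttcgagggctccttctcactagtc
Ccl11 +15.4 kb, the strongest called in LysMCre+RXRabfl/fl alone (chr11:82073050-82073250, plus strand): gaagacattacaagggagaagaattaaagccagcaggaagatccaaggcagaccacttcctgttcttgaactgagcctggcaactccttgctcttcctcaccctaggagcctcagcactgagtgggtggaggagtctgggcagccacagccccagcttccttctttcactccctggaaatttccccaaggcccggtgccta
Ccl3 +18.1 kb, with the DR5 match (chr11:83631183-83631383, plus strand): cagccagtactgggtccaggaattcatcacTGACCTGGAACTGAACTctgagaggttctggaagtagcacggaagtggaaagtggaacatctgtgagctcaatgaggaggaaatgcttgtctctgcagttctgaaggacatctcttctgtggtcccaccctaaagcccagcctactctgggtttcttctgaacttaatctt
Ccl8 +24.6 kb held 1 AP-1 and 1 C/EBP match, and Ccl6 -23.6 kb and Ccl3 +9.04 kb held 1 C/EBP match each, 61 and 46 bases to the right of the summit. The DR5 match, the repeat to which retinoic acid receptors and retinoid X receptors bind together, lay 62 bases to the left of the summit in Ccl3 +18.1 kb and was the only one among the 51 windows, against 0.151% of all 70744. AP-1 letters were found in 12 of the 51 windows (23.5%, against 12.7% of all windows), C/EBP letters in 9 (17.6% against 11.1%), PU.1 letters in 5 (9.80% against 9.30%) and STAT letters in 4 (7.84% against 5.58%). NF-kB letters were in 2 windows (3.92% against 3.38%), ISRE letters in 2 (3.92% against 2.9996%), TATA letters in 7 (13.7% against 5.52%), and GATA and DR1 letters in none, against 6.44% and 0.164%. These shares describe letters in a window and were not tested.

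**Figure D1:**
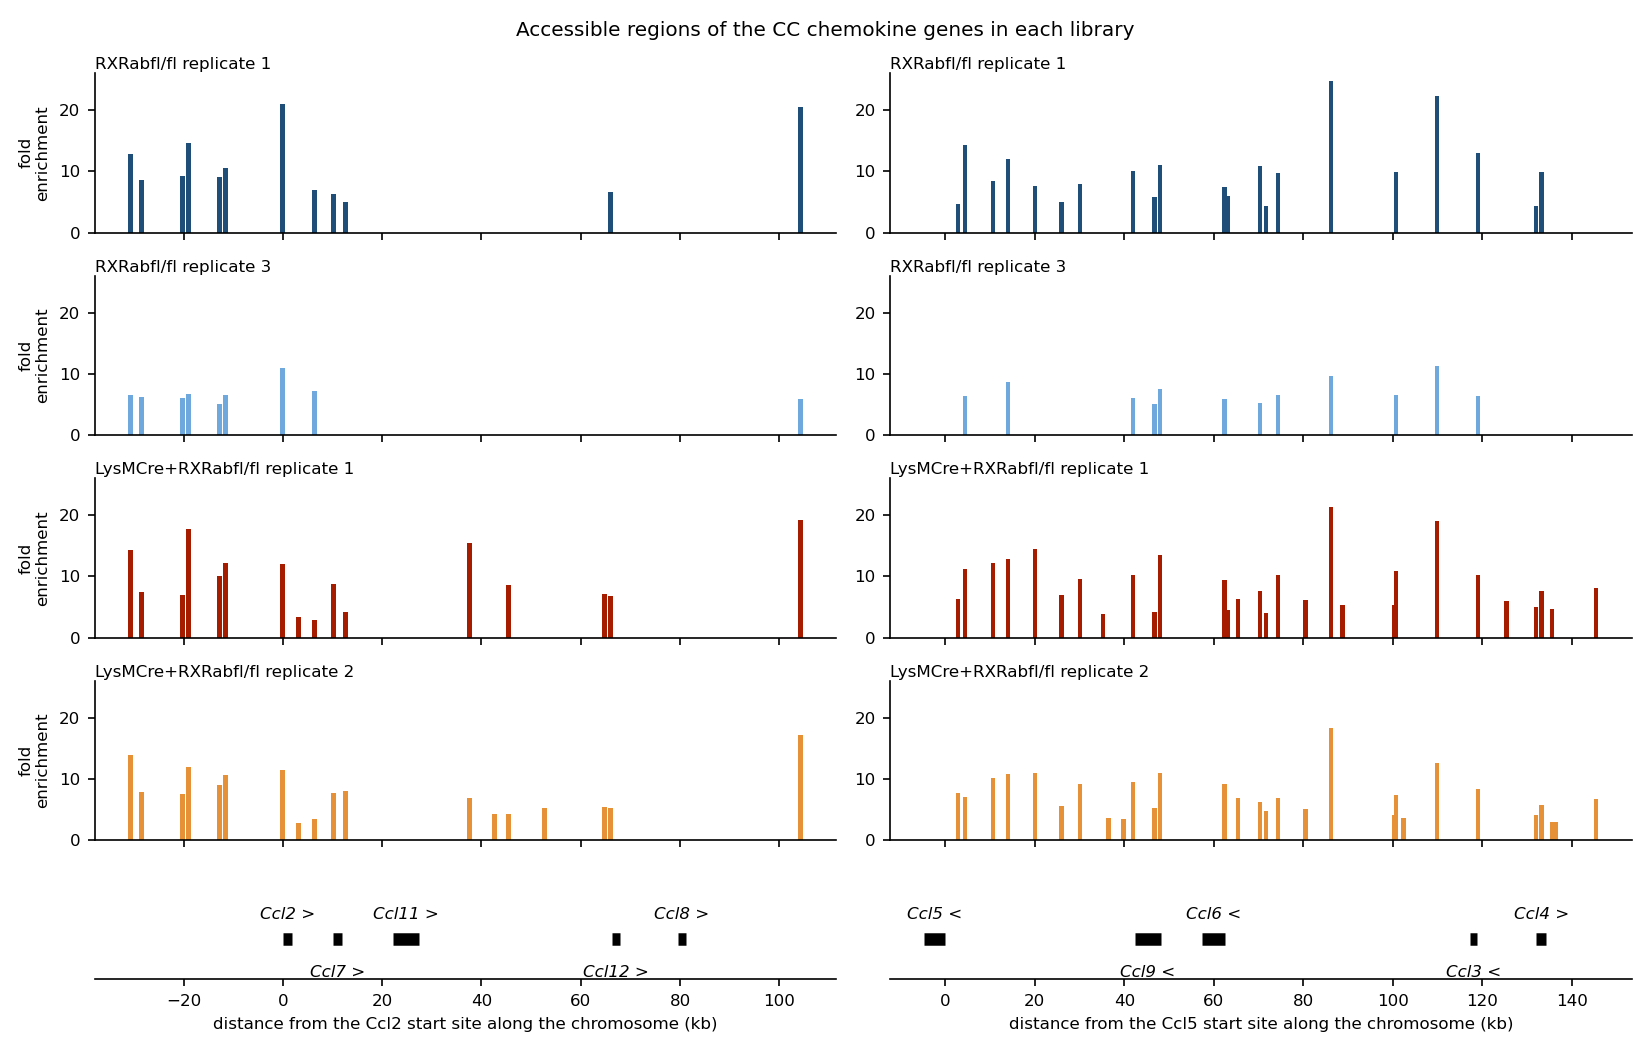
Fold enrichment at the summit of each chemokine region (y axis) against its distance along chromosome 11 from the Ccl2 TSS (left) or the Ccl5 TSS (right) in kb, with 1 row per library and the genes below (arrowheads give the strand). Bars are called regions, so a gap means that no peak was called there. The tallest bars of RXRabfl/fl replicate 1, at 24.7, 22.2, 20.9 and 20.5, belong to Ccl6 -23.6 kb, Ccl3 +9.04 kb, the Ccl2 promoter and Ccl8 +24.6 kb.

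Chemokine regions were mostly distant from promoters. By midpoint, 34 lay between genes, 9 in introns and 8 in a promoter (from 1 kb before to 200 bp after a TSS), and 7 of the 9 intronic ones were upstream of Ccl6 in the noncoding gene E230016K23Rik, which crosses Ccl6 on the other strand (chr11:83582061-83623693). Each 50-base stretch of the 51 regions occurs once in the mouse genome, so reads there are not shared with another chemokine copy. Of the 51 regions, 21 (41.2%) were called in all 4 libraries, against 21.5% of all regions, and they came from Ccl2 (7), Ccl6 (4), Ccl9 (3), Ccl3 (3), Ccl5 (2), Ccl7 (1) and Ccl8 (1). Ccl11, Ccl12 and Ccl4 had none. Summits of these 21 regions moved by a median of 43 bp and at most 186 bp between libraries. The gene with most, Ccl2, is matched or exceeded in regions called in all 4 libraries by 0.248% of the 24963 annotated genes, whose median is 0.

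Promoters fell into 3 kinds. Those of Ccl2, which encodes the CCR2 ligand best known for drawing monocytes, of Ccl9 and Ccl6, a pair of CCR1 ligands made by resting myeloid cells in the mouse, and of Ccl3, an inflammatory ligand of CCR1, were called in all 4 libraries, as were promoters of 35.8% of all genes. Those of Ccl7 and Ccl12, both CCR2 ligands, and of Ccl4, an inflammatory chemokine that draws monocytes and T cells, were called in 3 libraries and missed in RXRabfl/fl replicate 3, and 12.5% of all genes had a promoter called in 3 libraries. No region was called at the promoters of Ccl11 (eotaxin, the CCR3 ligand that draws eosinophils), Ccl8 or Ccl5 (RANTES, a ligand of CCR1 and CCR3), as at 43.9% of all genes. The absence of a call does not show closed chromatin: only 1% of the peaks of a library had a fold enrichment under 3.26, 3.88, 3.17 and 2.96.

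The values below are the fold enrichment at the summit, the tag pileup over the local background of the same library, each with 1 added. At the Ccl2 promoter (chr11:82035160-82035809) fold enrichment was 20.9 and 10.9 in RXRabfl/fl and 12.1 and 11.5 in LysMCre+RXRabfl/fl, the replicates of the controls lying on either side of both others before any scaling. The Ccl9 promoter (chr11:83578285-83578743) stood at 11.0, 7.46, 13.5 and 10.9, and the Ccl6 promoter (chr11:83592705-83593192) at 7.43, 5.91, 9.45 and 9.22. The Ccl3 promoter (chr11:83649044-83649940) had values of 12.9, 6.43, 10.3 and 8.31. In each of these 4 genes the lowest value was that of RXRabfl/fl replicate 3, the library with fewest peaks, whose median over all regions called in all 4 libraries was 7.52 against 14.5, 15.1 and 12.02. Library medians were therefore set equal before genotypes were compared. After this scaling both controls lay above both others at the Ccl2 and Ccl3 promoters, and the genotypes overlapped at those of Ccl9 and Ccl6.

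Weaker promoters were seen in 3 libraries. The Ccl7 promoter (chr11:82045414-82045958) had a fold enrichment of 6.28 in RXRabfl/fl replicate 1 and of 8.83 and 7.78 in LysMCre+RXRabfl/fl. The Ccl12 promoter (chr11:82101140-82101952) had 6.57, 6.74 and 5.35, and the Ccl4 promoter (chr11:83662286-83662800) 4.35, 5.04 and 4.15, in the same libraries. Within Ccl4, a region in an intron 1.18 kb after the TSS was stronger than the promoter in each of these libraries, at 9.84, 7.58 and 5.73.

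The strongest regions were distal. Ccl6 -23.6 kb (chr11:83616459-83616983), in the intron of E230016K23Rik, reached 24.7, 9.60, 21.3 and 18.3, which placed it at the 96.4th, 69.8th, 84.7th and 88.3rd percentile of regions called in all 4 libraries. Ccl3 +9.04 kb (chr11:83639988-83640698), beyond the 3' end of Ccl3, followed at 22.2, 11.3, 19.02 and 12.6. Neither passed the threshold for a difference between genotypes (limma adjusted p = 0.983 and 0.275), although at Ccl3 +9.04 kb both controls lay above both others after scaling. Ccl8 +24.6 kb (chr11:82139367-82140180) was the one region assigned to Ccl8, a chemokine of the monocyte chemoattractant family, and stood at 20.5, 5.82, 19.1 and 17.1. Ccl5 had its strongest region at -14.0 kb (chr11:83544269-83544821), with 11.96, 8.70, 12.9 and 10.7, and a further one at -4.40 kb with 14.3, 6.34, 11.2 and 7.11.

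Upstream of Ccl2 lay 6 regions called in all 4 libraries. Their fold enrichments were 12.8, 6.61, 14.2 and 13.9 at -30.6 kb, 14.6, 6.76, 17.8 and 11.97 at -19.1 kb, and 10.5, 6.52, 12.2 and 10.7 at -11.6 kb. Those at -28.5 kb (8.60, 6.18, 7.37 and 7.88), -20.3 kb (9.31, 6.03, 6.91 and 7.55) and -12.7 kb (9.11, 5.07, 10.1 and 9.04) were lower in each library. Before scaling, both LysMCre+RXRabfl/fl libraries lay above both controls at -30.6 and -11.6 kb, and the genotypes overlapped at the other 4. The remaining regions called in all 4 libraries were 2 near Ccl9, at +6.22 kb (10.0, 6.10, 10.2 and 9.49) and +1.32 kb (5.74, 5.04, 4.19 and 5.29), 2 upstream of Ccl6, at -7.70 kb (10.9, 5.24, 7.59 and 6.27) and -11.8 kb (9.76, 6.47, 10.2 and 6.95), and Ccl3 +18.1 kb (9.89, 6.54, 10.9 and 7.41).

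**Figure D2:**
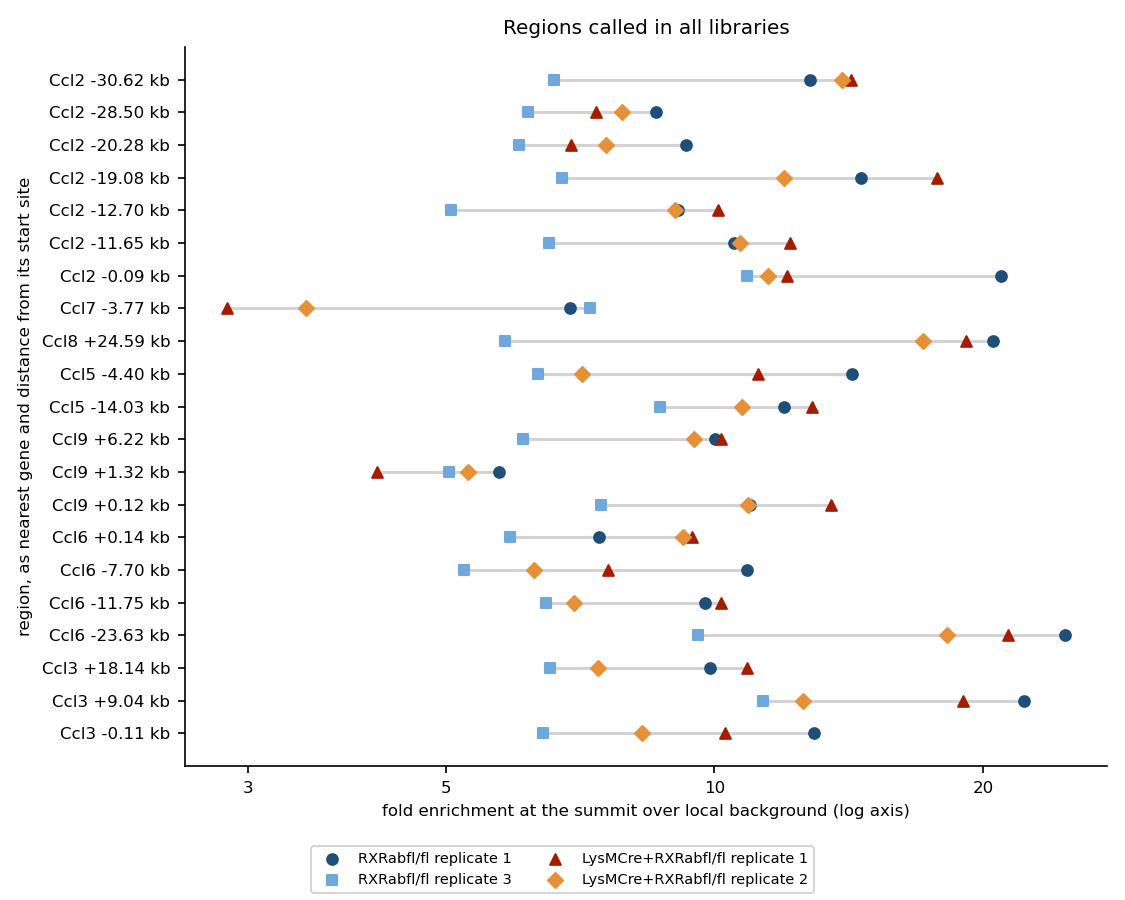
Fold enrichment at the summit (x axis, log scale) of the 21 chemokine regions called in all 4 libraries (y axis, nearest gene and distance from its TSS), with 1 symbol per library and a grey line over their range. RXRabfl/fl replicate 3 is lowest in 19 of the 21, and Ccl7 -3.77 kb is the region where both RXRabfl/fl libraries, at 6.90 and 7.26, lie above both LysMCre+RXRabfl/fl libraries, at 2.84 and 3.48, without scaling.

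No chemokine region passed the threshold for a difference between genotypes. In limma on log2 fold enrichment, with an adjusted p under 0.05 and a log2 difference over 1 required, 13 of 15199 regions called in all 4 libraries passed (0.0855%), and 0 of the 21 chemokine regions did. Unadjusted p-values under 0.05 were found for 3 of the 21 (14.3%), against 22.0% of all regions. The chemokine regions had a median log2 difference (LysMCre+RXRabfl/fl minus RXRabfl/fl) of -0.21, beside -0.087 over all regions tested, with 14 negative and 7 positive (59.0% of all regions were negative). The split depended on the measure, with 10 negative and 11 positive on the pileup (median 0.014, beside -0.10 over all regions) and 6 and 15 on the local background (median 0.099, beside -0.055), both described below. After scaling, both RXRabfl/fl libraries lay above both others in 7 of the 21 regions (33.3%), against 32.9% of all, and both LysMCre+RXRabfl/fl libraries lay above in 1 (4.76%), Ccl2 -30.6 kb, against 22.3%. By group, the median was 0.09 in the Ccl2 group and -0.25 in the Ccl5 to Ccl4 group.

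The nearest to the threshold was Ccl7 -3.77 kb (chr11:82041609-82042272), between Ccl2 and Ccl7, 4.16 kb beyond the end of Ccl2. Its fold enrichment was 6.90 and 7.26 in RXRabfl/fl and 2.84 and 3.48 in LysMCre+RXRabfl/fl. Summits lay up to 178 bp apart between libraries, against a median of 43 bp over the 21 regions, so these values may not describe a single site. Both controls were above both others, by a log2 difference of -1.54 (SE 0.31, 2.90-fold, limma adjusted p = 0.0591). Among regions called in all 4 libraries, these values lay at the 5.28th and 46.6th percentile in RXRabfl/fl and at the 0.046th and 0.43rd in LysMCre+RXRabfl/fl. The controls were thus far apart after scaling, and both LysMCre+RXRabfl/fl values were near the bottom of their libraries. The Ccl2 promoter, 6.46 kb away, had -0.73 (SE 0.21, limma adjusted p = 0.0904) and Ccl6 -7.70 kb -0.50 (SE 0.21, limma adjusted p = 0.185). Without RXRabfl/fl replicate 3, when the lone control is assumed to vary like the other group, limma called 3.42% of 33263 regions and 2 of 32 chemokine regions, Ccl7 -3.77 kb (-1.36, limma adjusted p = 0.0364) and the Ccl2 promoter (-1.06, limma adjusted p = 0.0451). Without RXRabfl/fl replicate 1 it called 5.16% of 15224 regions and, among 21 chemokine regions, Ccl7 -3.77 kb alone, at -2.05 (limma adjusted p = 0.0001).

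Fold enrichment is a quotient, and its parts moved apart between Ccl2 and Ccl7. The summit pileup and the local background were solved from each peak's fold enrichment and p-value, and every background above the lowest one of its library fell within 0.001 of a multiple of 0.02 tags, which is what 1 tag in a 10 kb window adds per 200 bp. The background thus counts tags over about 10 kb around a summit, those of the summit and of neighbouring regions included. It was divided by the lowest background of the library to allow for depth. At Ccl7 -3.77 kb the summit pileup was 31, 16, 26 and 22 tags, or 15.7, 15.1, 19.6 and 20.4 times the lowest background. The local background was 1.85 and 1.26 times the lowest in RXRabfl/fl and 6.41 and 5.19 times in LysMCre+RXRabfl/fl. The medians over all regions called in all 4 libraries were in a similar order, at 49.2, 18.9, 74.6 and 60.2 for the pileup and 2.94, 1.697, 4.28 and 4.10 for the background. The pileup at Ccl7 -3.77 kb was thus below the median in each library, while the background was above the median in both LysMCre+RXRabfl/fl libraries and below it in both controls.

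At the Ccl2 promoter the pileup was 88.3, 29.2, 109 and 99.2 times the lowest background, in the order of the library medians, and the local background was 3.74, 1.83, 8.37 and 7.78 times the lowest. In limma on the log2 of this ratio, with medians set equal, 4.52% of 15199 regions were called, and 1 of 21 chemokine regions (4.76%), Ccl7 -3.77 kb, which was higher in LysMCre+RXRabfl/fl by 1.01 (SE 0.23, 2.01-fold, limma adjusted p = 0.000513). The Ccl2 promoter was higher by 0.72 (SE 0.23, limma adjusted p = 0.0171) and Ccl9 +6.22 kb, where the ratios were 2.88, 1.38, 5.47 and 7.77, by 0.80 (SE 0.24, limma adjusted p = 0.00722), both past the p threshold but under a log2 difference of 1. The windows of the Ccl2 promoter and Ccl7 -3.77 kb overlap, so their backgrounds are not separate observations. The window around Ccl7 -3.77 kb also takes in the Ccl7 promoter, whose summit pileup was 13.2 times the lowest background in RXRabfl/fl replicate 1 and 50.5 and 42.6 times in LysMCre+RXRabfl/fl. Both windows take in Ccl2 +3.09 kb (chr11:82038488-82038842), called in the LysMCre+RXRabfl/fl libraries alone. Its summit pileup was 31.7 and 24.1 times the lowest background there. In this fit the SE was nearly the same at each of the 21 chemokine regions. The p-values on local background thus rest on a variance shared by all regions rather than on the spread at each region. This measure was added after the values were seen.

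**Figure D3:**
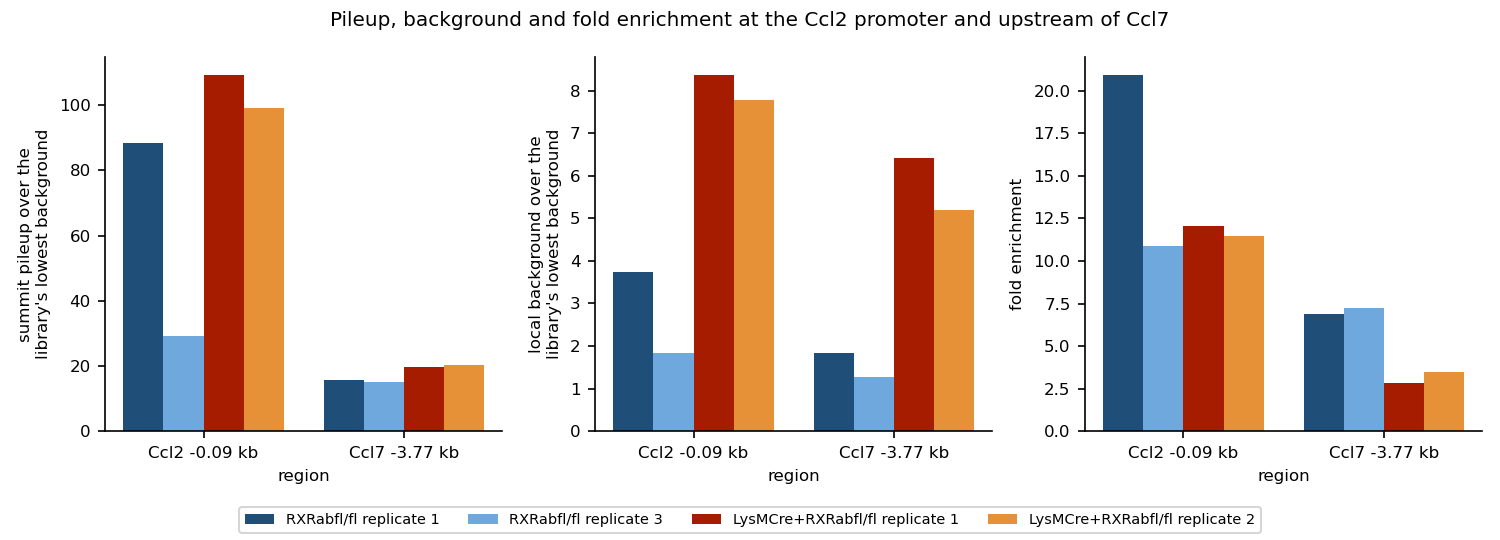
Summit pileup over the lowest background of the library (left), local background over the same (middle) and fold enrichment (right) at the Ccl2 promoter and at Ccl7 -3.77 kb, with 1 bar per library. At Ccl7 -3.77 kb the background bars of LysMCre+RXRabfl/fl (6.41 and 5.19) stand above those of RXRabfl/fl (1.85 and 1.26), while fold enrichment has the opposite order.

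On the summit pileup alone, with library medians rather than lowest backgrounds set equal, limma called 7.48% of the 15199 regions and 0 of the 21 chemokine regions, of which 5 had an unadjusted p under 0.05 (33.2% of all regions did). The differences were -0.76 (SE 0.39, limma adjusted p = 0.205) at Ccl7 -3.77 kb and -0.10 (SE 0.22, limma adjusted p = 0.777) at the Ccl2 promoter. Closest to the threshold were Ccl5 -4.40 kb, with pileups of 84, 16, 51 and 30 and a log2 difference of -0.77 (SE 0.22, limma adjusted p = 0.0524), and Ccl3 +9.04 kb, with 144, 36, 104 and 52 and -0.83 (SE 0.24, limma adjusted p = 0.0558). Both were lower in LysMCre+RXRabfl/fl after scaling, and on fold enrichment they differed by -0.46 and -0.41. The highest difference was that of Ccl2 -30.6 kb, at 0.65 (SE 0.24, limma adjusted p = 0.100). For Ccl6 -23.6 kb the difference was -0.01 on fold enrichment (95% interval -0.49 to 0.47) and 0.03 on pileup, and for Ccl8 +24.6 kb 0.36 (-0.22 to 0.94) and 0.19, with intervals that span 0.

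**Figure D4:**
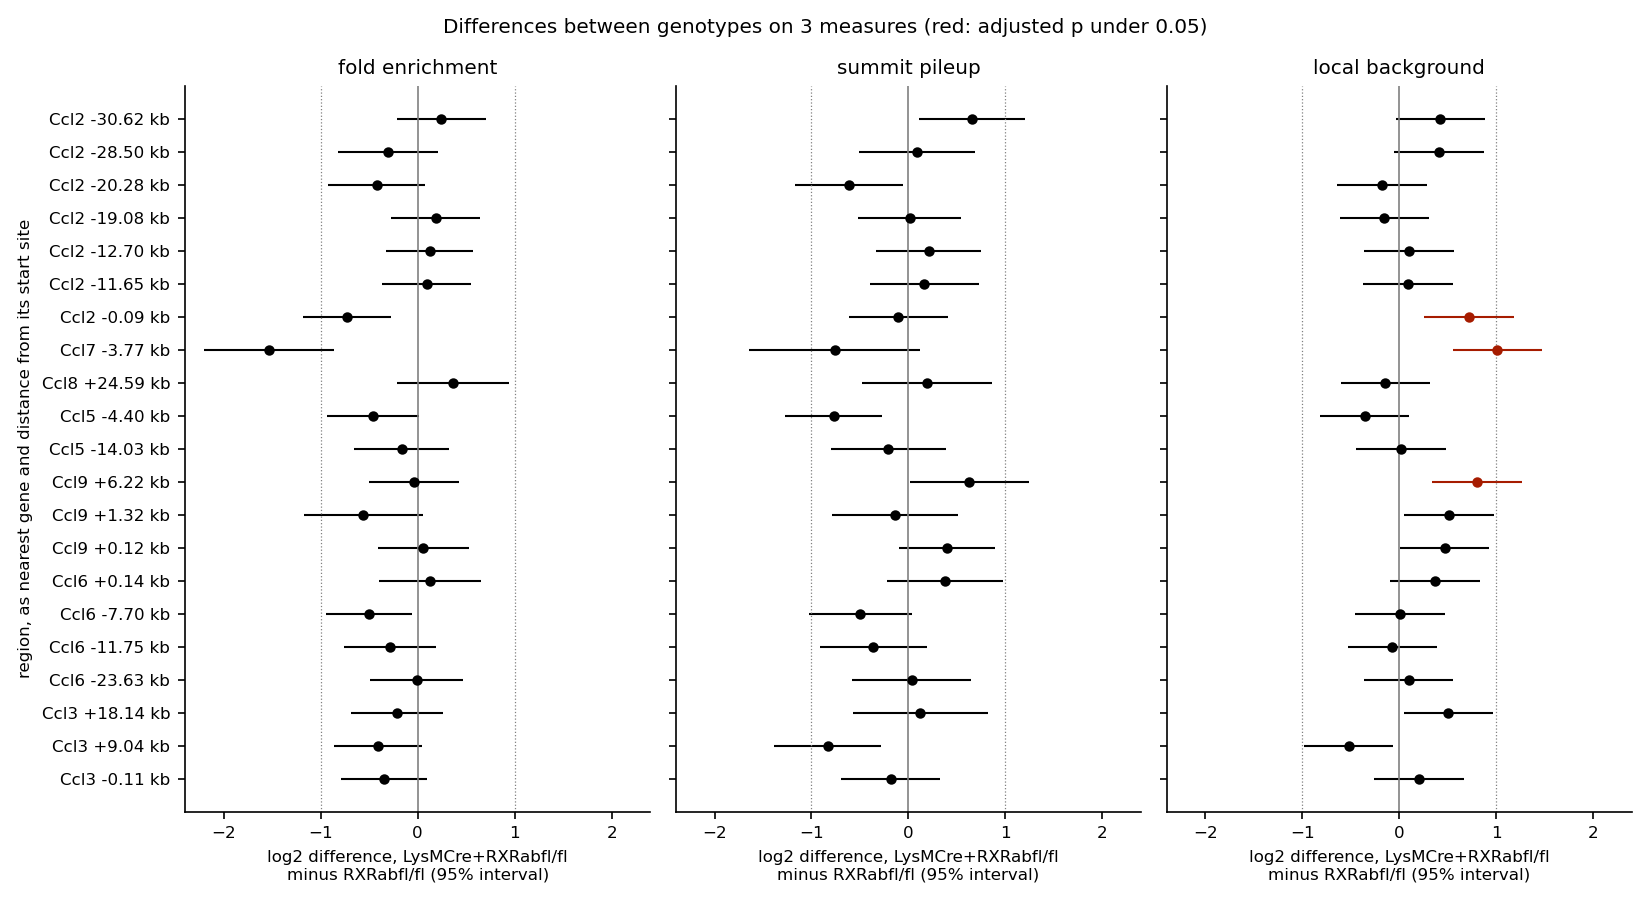
Log2 differences between genotypes (x axis, LysMCre+RXRabfl/fl minus RXRabfl/fl, 95% intervals from limma, dotted lines at a log2 difference of 1 in each direction) of the 21 chemokine regions on fold enrichment, summit pileup and local background. Red marks an adjusted p under 0.05, which is reached by the Ccl2 promoter, Ccl7 -3.77 kb and Ccl9 +6.22 kb on local background.

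Chemokine regions were called more often in the libraries with more peaks, except that LysMCre+RXRabfl/fl replicate 2 exceeded replicate 1. They were called 33 and 21 times in RXRabfl/fl and 45 and 47 times in LysMCre+RXRabfl/fl, a mean of 27 against 46, with a p of 0.3333 in a two-sided exact permutation test, the smallest that 2 against 2 libraries can give. As shares of the 51 regions these counts were 64.7%, 41.2%, 88.2% and 92.2%. The libraries called 52.0%, 21.9%, 90.7% and 77.2% of all 70744 regions. RXRabfl/fl replicate 3 called no region of Ccl11, Ccl12 or Ccl4 and 2 of the 5 of Ccl5. Ccl2 had 7, 7, 8 and 8 regions, and Ccl8 had 1 in each library. When each library was reduced to its 16097 peaks of lowest q, the counts were 18, 21, 13 and 15, so the order of the genotypes was the reverse.

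**Figure D5:**
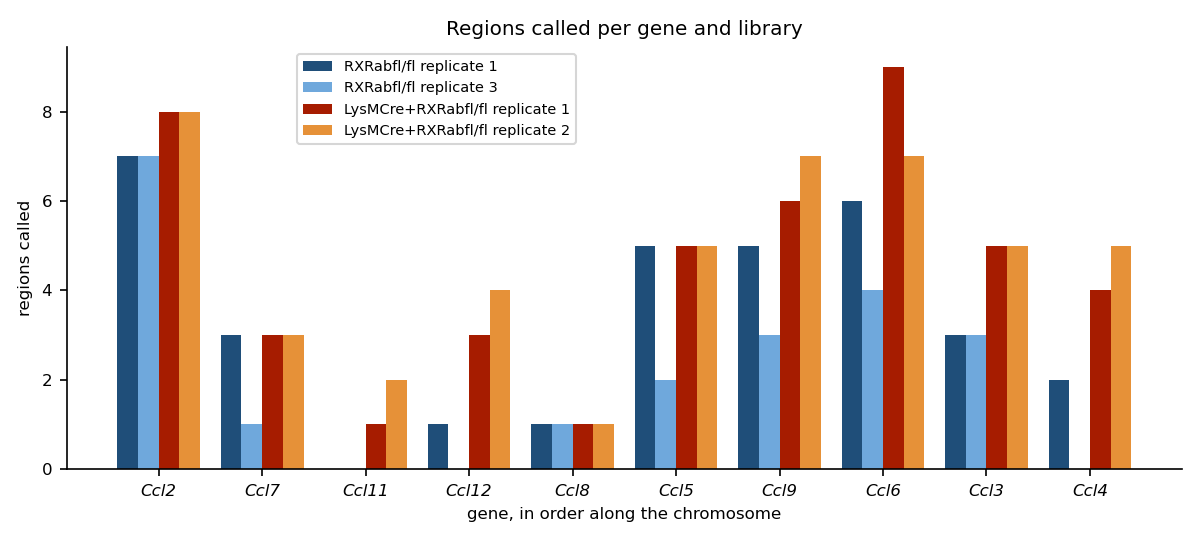
Regions called (y axis) per chemokine gene in order along the chromosome (x axis), with 1 bar per library. Ccl2 has 7 or 8 in each library, while Ccl11 has none in RXRabfl/fl and 1 and 2 in LysMCre+RXRabfl/fl.

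Both LysMCre+RXRabfl/fl libraries and neither control called 9 chemokine regions (17.6%), against 22.8% of all regions, and 0 regions were called in both controls alone, against 0.0452%. With equal peak numbers the counts were 1 and 3 of 23 chemokine regions, against 7.82% and 7.22% of all 22300 regions. The strongest was Ccl11 +15.4 kb (chr11:82072962-82073476), shown above, with a fold enrichment of 15.5 and 6.97. Next came Ccl4 +13.3 kb (8.17 and 6.73), Ccl6 -2.85 kb (6.23 and 6.91), Ccl12 -1.46 kb (7.11 and 5.38) and Ccl12 -20.9 kb (8.60 and 4.27). The medians over all peaks of the LysMCre+RXRabfl/fl libraries were 8.13 and 7.21, so most of these values were below or near the median of their library. In bulk libraries, fewer cells with open chromatin and less open chromatin per cell cannot be told apart.

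Of the genes for CC chemokine receptors, 7 were compared by the same rule. Ccr1, Ccr2, Ccr3, Ccr1l1, Ccrl2, Ackr1 and Ackr2 had 44 regions, 7 of them called in all 4 libraries, 10 in LysMCre+RXRabfl/fl alone (22.7%, against 22.8% of all regions) and 0 in RXRabfl/fl alone (against 0.0452%). None of the 7 passed on fold enrichment, and 2 did on pileup, both of Ccrl2, a receptor that binds chemerin without signalling: the promoter (-1.17, SE 0.28, limma adjusted p = 0.0345) and a region at -1.85 kb (-1.01, SE 0.23, limma adjusted p = 0.0303), both lower in LysMCre+RXRabfl/fl. Over all 15199 regions tested, 7.48% passed on pileup. The Ccr1 promoter, that of the receptor for Ccl3, Ccl5, Ccl6 and Ccl9, was open in each library at 21.4, 13.0, 22.5 and 17.5 (log2 difference -0.12, SE 0.21, limma adjusted p = 0.771). The promoter of Ccr2, the receptor for Ccl2, Ccl7 and Ccl12, was called in no library, and Ccr2 had 1, 0, 3 and 3 regions elsewhere.

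The 11 CC chemokine genes listed outside the 10 had 29 regions, 7 of them called in all 4 libraries, and none of the 7 passed on either measure. Their promoters called in all 4 libraries were those of Ccl24, an eotaxin, at 11.1, 7.54, 9.83 and 9.92 (log2 difference -0.26, SE 0.23, limma adjusted p = 0.525), and Ccl25, the CCR9 ligand, at 22.1, 8.50, 16.8 and 13.3 (-0.24, SE 0.22, limma adjusted p = 0.540). The promoters of Ccl22 and Ccl27a were called in LysMCre+RXRabfl/fl replicate 1 alone, at 7.31 and 4.30. Ccl19, Ccl20, Ccl21a and Ccl26 had no region. Ccl1, which lies beyond Ccl8 on chromosome 11, had 1, 0, 7 and 4 regions and no called promoter.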

How the data were processed

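ATAC-seq of sorted LPMs was measured in 4 libraries, 2 per genotype, grouped by the genotype in the labels. Per the study's methods, the authors aligned trimmed pairs to mm10 with Bowtie2, removed duplicates, low-quality alignments and reads of the sex chromosomes and mitochondria, called peaks per library with MACS2 2.1.1 at a q-value of 0.05, extending tags to 200 bp, and discarded blacklisted peaks with bedtools 2.24.0. The deposited peak lists give, for each peak, a score, the summit's fold enrichment (a ratio to local background), and -log10 of its p-value and q-value. Read counts are not used here, so the study's count test was not repeated.

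The chemokine genes and all lists and tests were chosen with earlier results of these data known. Regions were assigned to 43783 RefSeq transcripts of 24963 autosomal genes (GRCm38.p6, equal to mm10). Where a library had several peaks in a region, the one with the highest fold enrichment was used. Regions called in all 4 libraries were tested with limma 3.58.1 in R 4.3.3 (log2 fold enrichment, library medians set equal, Benjamini-Hochberg over all 15199 regions, adjusted p under 0.05 and log2 difference over 1). In simulated data with 15199 regions, 200 of 200 regions changed by 2 log2 units were called, with 1 false call. The simulated noise had the same spread in every region and library, so this checks the code and does not measure the power in the real libraries. Whole-number summit pileups and backgrounds were solved from fold enrichment and p-value, with the pseudocount of 1 that MACS2 uses, and at least 99.99% of peaks of each library were solved within 0.01 of the deposited -log10 p-value. Depth is known through the lowest background alone, so no counting intervals are given. Described in the text were, by rule, each gene's promoter and strongest region, every region called in all 4 libraries, those of 1 genotype alone (the 5 strongest by name) and any past the threshold. Alternatives were the pileup, quantile scaling, a q-value under 0.01, regions seen in 2 or more libraries, limma with a mean-variance trend, summit windows for merging, equal peak numbers, other gene assignment and leaving out each library, and, added after the values were seen, the local background. One gene of the receptor list is not reported here. Python 3.11.15 with numpy 2.4.6 and pandas 2.3.3 was used for all other steps.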

Additional observations from a re-analysis of the deposited data

How the results depend on the processing

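No paired analysis was possible because the genotypes share only replicate number 1. In limma over all regions, 7 were higher in RXRabfl/fl and 6 in LysMCre+RXRabfl/fl. These counts became 758 and 379 on the pileup, 2 and 9 with quantile scaling, 2 and 185 over regions called in at least 2 libraries, 76 and 61 with a mean-variance trend, and 360 and 327 on local background, the last chosen after seeing the data. Leaving out each library in turn gave 9 to 540 and 3 to 735. Chemokine regions past the threshold numbered 0, but 1 with the trend (Ccl7 -3.77 kb, limma adjusted p = 0.0438) and 1 on local background (the same region, in the opposite direction), and 0 to 2 when a library was left out. The 2 were those named above without RXRabfl/fl replicate 3, and leaving out RXRabfl/fl replicate 1 or LysMCre+RXRabfl/fl replicate 2 (-1.85, limma adjusted p = 0.00145) gave Ccl7 -3.77 kb alone. Without LysMCre+RXRabfl/fl replicate 1 it was -1.22 (limma adjusted p = 0.138). Its log2 difference ran from -2.05 to -0.76 over the 10 alternatives other than local background, which include leaving out each library. The highest limma adjusted p among them was 0.205, on the pileup. Fewer samples and, without RXRabfl/fl replicate 3, more regions enter those fits, and otherwise the cause was not tested.

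Chemokine regions called in LysMCre+RXRabfl/fl alone numbered 9 and those in RXRabfl/fl alone 0. With the same number of peaks per library these counts were 1 and 3, and the difference in mean number of regions per library went from 19 to -5.5. Leaving out a library gave 9 to 20 and 0, the highest without RXRabfl/fl replicate 1, and 15 without LysMCre+RXRabfl/fl replicate 1. RefSeq NM start sites alone gave 11 and summit windows 10. For leaving out a library, start sites and summit windows, no share over all regions is given, so these counts are a description only.

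Small differences changed sign. On the pileup, Ccl2 -28.5 kb became 0.091, Ccl9 +6.22 kb 0.63, Ccl6 -23.6 kb 0.031 and Ccl3 +18.1 kb 0.12. Over regions called in at least 2 libraries, Ccl5 -14.0 kb became 0.10, Ccl9 +6.22 kb 0.23, Ccl6 -23.6 kb 0.25 and Ccl3 +18.1 kb 0.055, and with quantile scaling Ccl6 -23.6 kb became 0.014. With a library left out, the log2 difference ran from -0.11 to 0.17 at Ccl2 -11.6 kb, from -0.16 to 0.21 at -12.7 kb, from -0.23 to 0.31 at -19.1 kb and from -0.091 to 0.39 at -30.6 kb. It ran from -0.41 to 0.79 at Ccl8 +24.6 kb, from -0.55 to 0.20 at Ccl6 -23.6 kb, from -0.18 to 0.27 at the Ccl6 promoter, from -0.14 to 0.069 at the Ccl9 promoter and from -0.26 to 0.077 at Ccl9 +6.22 kb.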
